A study of Mus musculus with 5 samples.

Results

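NF_Calb1 and PEP2_Htr3a.Sema5a are names of sensory neuron types in the mouse dorsal root ganglion (DRG), and the comparison described here is between their cells within the same mice. The members were chosen by the deposited annotation, which the authors defined from clusters of these same counts: 180 cells annotated NF_Calb1 (spelled NF_Ca1b1 in the annotation) and 206 annotated PEP2_Htr3a.Sema5a, called PEP2 below, that is 386 of 3352 cells. Lumbar DRGs of adult, untreated wild-type C57BL/6 mice, males and females, were dissociated with collagenase and trypsin, and the cells were run singly on the droplet-based Chromium 3′ platform. There each transcript gets its own molecular tag, the UMI, so that copies made by PCR count once. All 5 samples belong to 1 condition, so no treatment, genotype or age was compared, and a type is compared with the other type of the same library. UMIs were summed over the cells of a type in each library, giving 5 sums against 5, and a level is given in CPM, the UMIs of a gene per 1000000 UMIs of its sum. Each library was taken as 1 mouse and is named Sample1 to Sample5.

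As background, neurons of the DRG carry touch, position, itch, temperature and pain from the body to the spinal cord. Neurons rich in neurofilament (NF) have large, myelinated axons and include the touch receptors and proprioceptors, and many of them depend on BDNF, NT-3 or GDNF family ligands through TrkB (Ntrk2), TrkC (Ntrk3) or Ret. Peptidergic (PEP) neurons are mostly nociceptors, and release calcitonin gene-related peptide (CGRP, encoded by Calca) and substance P (encoded by Tac1). Calb1 encodes the calcium buffer calbindin, Htr3a a subunit of the serotonin-gated ion channel and Sema5a a membrane-bound guidance protein.

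The NF_Calb1 cells numbered 16, 29, 44, 24 and 67 in Sample1 to Sample5, and the PEP2 cells 13, 41, 35, 40 and 77. NF_Calb1 cells were more numerous in 2 of 5 libraries (exact two-sided sign-flip test over libraries, p = 0.5). With 5 libraries this exact test cannot go below p = 0.0625. A cell held a median of 77900 UMIs in NF_Calb1 and 73919 in PEP2, and the median per library was higher in NF_Calb1 in 3 of 5 libraries (exact p = 0.375). The sums held 1235586 to 5025273 UMIs, the smallest being PEP2 in Sample1. The median share of mitochondrial UMIs per library lay between 6.42% and 7.98% in NF_Calb1 and between 4.48% and 6.68% in PEP2. It was higher in NF_Calb1 in 4 of 5 libraries, by 1.45 ± 1.31 percentage points (SD, n = 5, exact p = 0.125). In the series 7 cell barcodes occurred in more than 1 library, 1 of them among the cells compared here.

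Markers of other cells were measured beside the comparison. The summed level of 10 satellite glia markers was 484 to 936 CPM in NF_Calb1 and 458 to 1017 CPM in PEP2, and none of the 5 of them that could be tested passed the call defined below. The sum of 10 Schwann cell markers was 299 to 371 CPM in NF_Calb1 and 390.1 to 586 CPM in PEP2, and was higher in PEP2 in 5 of 5 libraries. Of 3 tested Schwann cell markers 1 was called, Mbp, higher in PEP2 at 39.4 against 7.5 CPM. Most of that sum was Pmp22, while Mag stood at 0 in both types. The sum of 8 endothelial markers was 52.2 to 77.5 CPM in NF_Calb1 and 112 to 156 CPM in PEP2, mostly Egfl7, and both tested markers, Egfl7 and Esam, were called as higher in PEP2, at 127 against 58.5 CPM and 12.3 against 6.18 CPM. The defining genes Pecam1, Cldn5 and Cdh5 were each under 1 CPM in both types. Of 8 macrophage markers C1qa, C1qc, Csf1r and Ptprc were at 0 in both types, and the sum was 0.716 to 19.9 CPM in NF_Calb1 and 2.79 to 30.4 CPM in PEP2. The sum of 6 fibroblast markers was at most 6.77 CPM in any library of either type. The part of these other cells in the differences below was not tested.

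Of 17267 genes, 10336 were tested in a paired edgeR fit. A gene was called where the types differed at least 2-fold, with a Benjamini-Hochberg adjusted p under 0.05, in the same direction in 5 of 5 libraries. NF_Calb1 was higher for 673 genes, or 6.51% of those tested, and PEP2 for 641 genes, or 6.2%. Together 1314 genes, or 12.7%, were called, and 8943 genes lay within 2-fold. For the gene lists below, a percentage in brackets is the share called in either direction, to be read beside this 12.7%. The lists were chosen with earlier results of these data known, so these shares describe the lists and do not test them. Of the called genes, 530 differed more than 4-fold and 130 more than 16-fold. Because the clusters were made from these counts, the calls describe how far the types lie apart relative to the spread between mice, and no p is given for a gene.

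**Figure D1:**
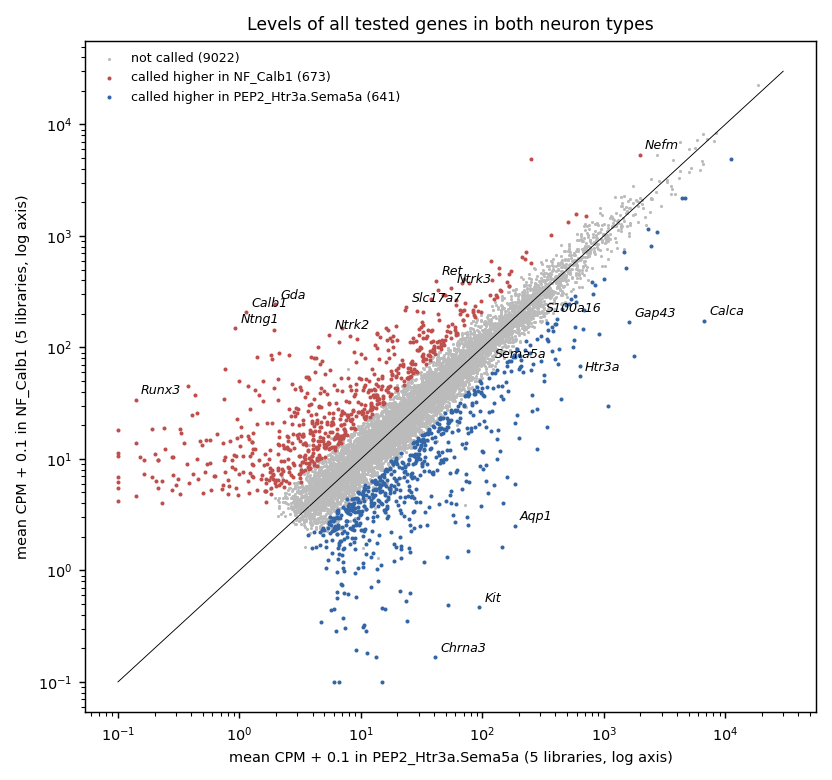
Mean level of each tested gene in PEP2_Htr3a.Sema5a (x axis) and NF_Calb1 (y axis), in CPM plus 0.1 on log axes, over 5 libraries, with called genes in colour and the line of equal levels. The 673 red and 641 blue points lie off the diagonal, while Sema5a and S100a16 sit near it.

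Of the genes in the names, Calb1 separated the types most. Calb1, on mouse chromosome 4 at chr4:15881264-15906709 in GRCm38, stood at 105, 213, 155, 221 and 345 CPM in NF_Calb1 of Sample1 to Sample5 and at 1.62, 1.02, 0.97, 0.613 and 0.995 CPM in PEP2. All 5 libraries were apart by a wide margin, with means of 208 ± 89.9 CPM in NF_Calb1 and 1.04 ± 0.362 CPM in PEP2 (SD over the 5 libraries, as for every ± below unless marked SE) and a fold of 7.83 ± 0.20 (SE) on the log2 scale. PEP3_Trpm8 neurons, a cold-sensing type, held the next highest mean level at 142 ± 107 CPM, so Calb1 was not limited to NF_Calb1. With each cell thinned to 20000 UMIs, Calb1 had a UMI in 50% of 178 NF_Calb1 cells, in 1.49% of 201 PEP2 cells and in 4.62% of 65 satellite glia, which should lack it. Cells with fewer UMIs, 2 of NF_Calb1, 5 of PEP2 and 184 of satellite glia, were left out of the thinned shares. Unthinned, these shares were 57.2%, 7.77% and 6.02%, at median depths of 77900, 73919 and 17729 UMIs.

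Htr3a, at chr9:48899213-48911152, stood at 824, 509, 677, 591 and 569 CPM in PEP2 and at 81.7, 19.9, 64.6, 63.4 and 46.3 CPM in NF_Calb1. The groups did not overlap, and the log2 fold change was -3.66 ± 0.17 (SE). In thinned cells Htr3a had a UMI in 95% of PEP2 cells and 30.9% of NF_Calb1 cells, against 9.23% of satellite glia, so the gene was also detected above that background in NF_Calb1. Unthinned, the shares were 98.1%, 57.2% and 10.0%.

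Sema5a, the other gene in the PEP2 name, did not pass the call. At chr15:32244813-32696341, it stood at 108, 106, 138, 81.3 and 136 CPM in PEP2 and at 107, 94.8, 54.2, 33.5 and 71.4 CPM in NF_Calb1. It was higher in PEP2 in 5 of 5 libraries, while the ranges overlapped and the log2 fold change of -0.78 ± 0.16 (SE) was under 2-fold. Without 15 cells that score as the other type, described further on, it was -1.28 and passed the call. Both levels were well above the next neuron type, PEP1_Dcn, at 15.9 ± 11 CPM. Of the 5 marker genes set for NF_Calb1, 2 were called (Calb1 and Nefm), while Nefl, Nefh and Ldhb lay within 2-fold. Of the 5 set for PEP2, 4 were called, Htr3a, Calca and Scn10a among them, and Sema5a was not.

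Markers of other neuron types were set beside these labels. The sum of 5 proprioceptor markers was 124 to 319 CPM in NF_Calb1 and 20.1 to 47.8 CPM in PEP2, with Pvalb and Runx3 called in NF_Calb1 and Whrn in PEP2. The sum of 4 markers of A-delta touch neurons was 131 to 209 CPM in NF_Calb1 and 5.21 to 18.1 CPM in PEP2, and the 3 tested ones, Ntrk2, Cadps2 and Necab2, were called. Of 5 markers of C-fibre peptidergic nociceptors, Tac1 and Dcn were called in PEP2, with sums of 223 to 491 CPM in PEP2 and 16.4 to 34.3 CPM in NF_Calb1. Trpv1, the heat and capsaicin channel, was not called, at 13.6 against 1.21 CPM in PEP2 against NF_Calb1. Of the markers of Th neurons, Fam19a4 was called in NF_Calb1, at 16.6 against 2.67 CPM, and Th in PEP2, at 21.1 against 1.2 CPM. No marker of non-peptidergic or cold-sensing neurons was high enough to be tested. Trpv1, Fam19a4, Th and Whrn were named after their values were seen.

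The 12 genes of largest fold change in NF_Calb1 with at least 20 CPM were Runx3, Calb1, Ntng1, Stxbp6, Gda, Ndst4, Cbln2, Aldh1a7, Rasd2, Hs3st2, Prokr1 and Hapln1. Runx3, a transcription factor of proprioceptor development at chr4:135120645-135177990, stood at 73.8, 23.9, 22.1, 28.2 and 22 CPM in NF_Calb1, and in PEP2 1 UMI was counted in all, in Sample5. Over the pooled UMIs the ratio was 463 (95% counting interval 82.7 to 18344). Ntng1, which encodes the adhesion protein netrin-G1, stood at 148 ± 49.5 CPM in NF_Calb1 and 0.826 ± 0.621 CPM in PEP2. Gda, guanine deaminase, reached 243 ± 36 CPM in NF_Calb1 and 1.86 ± 1.49 CPM in PEP2. In all 12 genes every library of NF_Calb1 lay above every library of PEP2. This follows largely from the choice of called genes with the largest folds, and is given as a description.

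Enzymes and matrix proteins were among these leading genes. Hs3st2 and Ndst4 encode enzymes that sulfate heparan chains, and stood at 142 against 1.84 CPM and 37.6 against 0.328 CPM in NF_Calb1 against PEP2. Hapln1, a link protein of hyaluronan matrices, stood at 89.3 ± 20.7 CPM in NF_Calb1 and 2.02 ± 1.68 CPM in PEP2. Prokr1, a prokineticin receptor, had 50.1 ± 17.7 CPM in NF_Calb1, and 0.892 ± 0.57 CPM in PEP2. The related receptor Prokr2 was among the leading genes of the other type, at 51.3 ± 14.6 CPM in PEP2 and 1.23 ± 0.976 CPM in NF_Calb1, so the 2 prokineticin receptor genes were higher in opposite types.

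The leading genes of PEP2 by the same rule included Chrna3, Kit, Kcnmb1, Chrnb4, Aqp1, Cnih3, Cldn9, Prokr2, Kcnv1 and Calca. Chrna3 and Chrnb4 encode the α3 and β4 subunits of neuronal nicotinic acetylcholine receptors. Chrna3 stood at 30.8, 8.91, 22, 91.4 and 52.1 CPM in PEP2, with a spread of about the size of its mean, and 1 UMI was counted in NF_Calb1, a ratio of 629 (95% counting interval 113 to 24894). Chrnb4 stood at 20.2, 9.16, 15.5, 49.4 and 25.1 CPM in PEP2 and 0, 0, 0.254, 0.587 and 0.415 CPM in NF_Calb1. Sample4 was the highest library and Sample2 the lowest for both subunits. In thinned PEP2 cells 35 of 201 held UMIs of both subunits, 10 of Chrna3 alone and 16 of Chrnb4 alone.

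Kit, the receptor of stem cell factor, stood at 43.7, 91.3, 98.6, 102 and 137 CPM in PEP2 and at 0, 0.332, 0.254, 0 and 1.25 CPM in NF_Calb1. The water channel gene Aqp1 reached 184 ± 28.4 CPM in PEP2 and 2.42 ± 2.01 CPM in NF_Calb1. The potassium channel genes Kcnmb1 and Kcnv1 stood at 144 against 1.52 CPM and 75.8 against 1.4 CPM in PEP2 against NF_Calb1. Kit had a UMI in 56.7% of thinned PEP2 cells, 0.562% of NF_Calb1 cells and 15.4% of satellite glia, and unthinned in 57.8%, 3.33% and 16.1%.

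**Figure D2:**
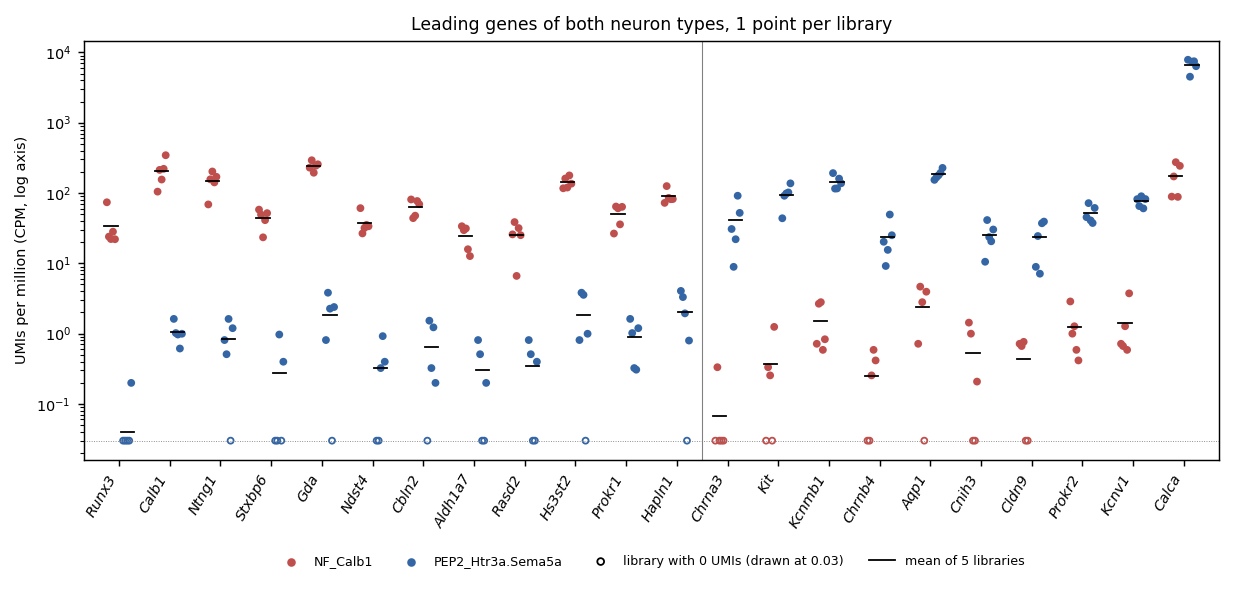
Level in CPM (log axis) of the 12 leading genes of NF_Calb1 (left) and of 10 leading genes of PEP2_Htr3a.Sema5a (right), with 1 point per library, black bars for means of 5 libraries and open points for libraries with 0 UMIs. Red and blue points do not overlap for any gene shown, and the genes were chosen for their large folds.

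Several growth factor receptors were higher in NF_Calb1. Of 10 tested genes of neurotrophin and GDNF family receptors, 5 were higher in NF_Calb1, 1 was higher in PEP2 and 4 were not called (60%). The median log2 fold change was 1.62, beside -0.01 for all tested genes.

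Ntrk2 stood at 117, 105, 131, 143 and 153 CPM in NF_Calb1 and 6.47, 7.38, 5.82, 0.92 and 6.37 CPM in PEP2 (4.57 ± 0.23 (SE) on the log2 scale). Ntrk3 stood at 399, 377, 405, 290.0 and 234 CPM in NF_Calb1 and 39.7, 69.2, 102, 30.7 and 36.2 CPM in PEP2 (2.63 ± 0.16 (SE)). Neither gene's ranges overlapped. Ret stood at 255, 597, 421, 365 and 347 CPM in NF_Calb1 and 45.3, 64.9, 35.2, 12.3 and 50.3 CPM in PEP2 (3.29 ± 0.23 (SE)). Its coreceptor gene Gfra1 stood at 151 ± 20.3 CPM in NF_Calb1 and 31 ± 9.41 CPM in PEP2, and Sort1, which encodes sortilin, at 6.5 against 0.352 CPM. The low-affinity neurotrophin receptor Ngfr, named after its values were seen, was not called at 539.7 against 1015 CPM.

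Among 12 neuron types, Ntrk3 was highest in NF_Calb1, at 341 ± 75.6 CPM against 173 ± 23.8 CPM in NF_Pvalb, the next type. Ntrk2 was second in NF_Calb1, under the 756 ± 113 CPM of NF2_Ntrk2.Necab2. Ret was second too, after Th neurons at 470.0 ± 48.1 CPM, and these means differed by less than the SD of NF_Calb1. In PEP2 Ret, Ntrk2 and Ntrk3 ranked 10, 7 and 6 of 12.

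**Figure D3:**
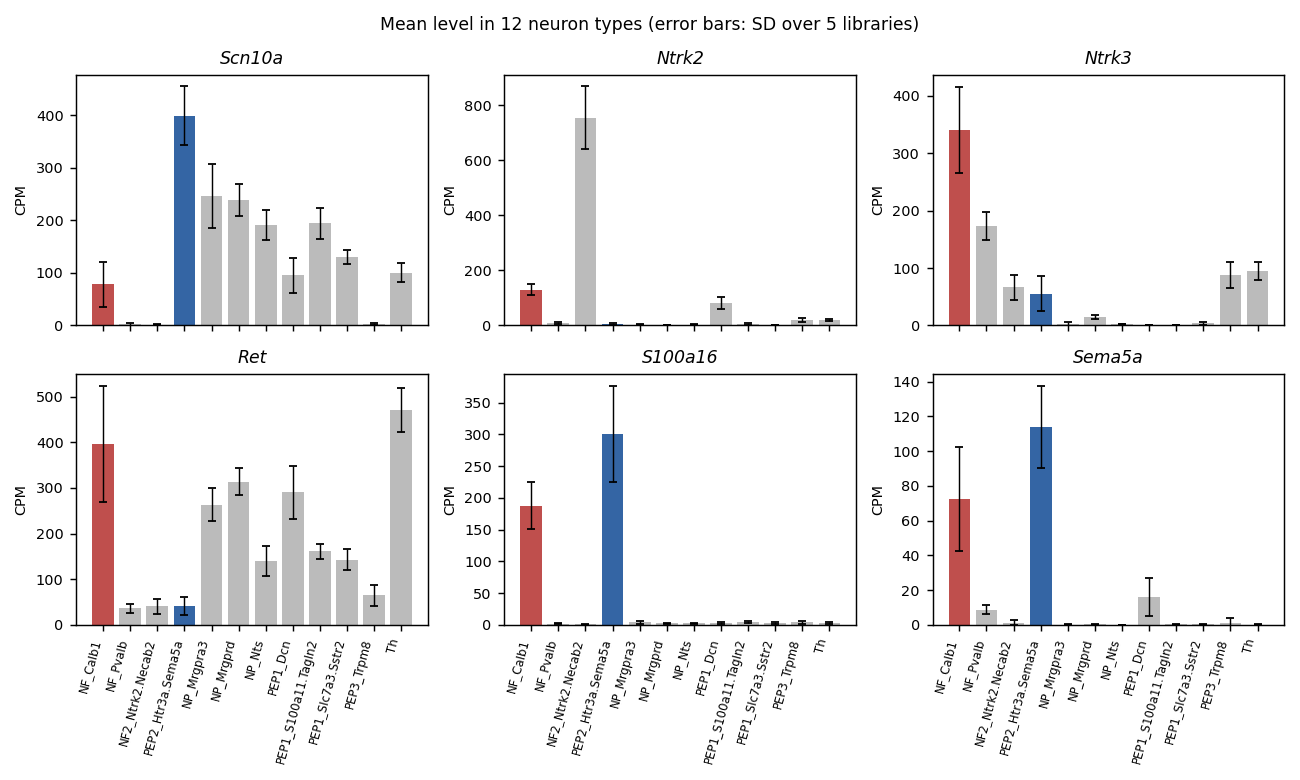
Mean CPM of 6 genes in each of 12 neuron types, with error bars of 1 SD over 5 libraries, NF_Calb1 in red and PEP2_Htr3a.Sema5a in blue. Scn10a is highest in PEP2, Ntrk3 is highest in NF_Calb1, and S100a16 and Sema5a stand out in both coloured bars.

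Single cells carried these receptors in combinations. Thinned to 20000 UMIs, 68 of 178 NF_Calb1 cells held UMIs of both Ntrk2 and Ntrk3, 44 of Ntrk2 without Ntrk3, 62 of Ntrk3 without Ntrk2 and 4 of neither. Ret was found with Ntrk3 in 121 cells and with Ntrk2 in 105. Ntrk2 is itself a gene of satellite glia, where it had a UMI in 65 of 65 cells, and its 6.97% in PEP2 has no clean background to set beside it.

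Every tested neuropeptide gene was higher in PEP2. Of 20 genes 7 could be tested, and all 7 were called, where 6.2% of all tested genes were, with a median log2 fold change of -3.22. The other 13 were too low to test. A gene low in NF_Calb1 could pass the count filter through PEP2 alone, so the 7 of 7 depends in part on the filter. Cartpt, for example, stood at 2.61 ± 1.90 CPM in NF_Calb1. The 7 genes are Calca, Cartpt, Tac1, Adcyap1, Nmb, Calcb and Gal, the last 3 named after their values were seen. Calca, at chr7:114625981-114636910, stood at 7853, 4510.3, 7372, 7476 and 6364 CPM in PEP2 and 88.8, 172, 274, 88 and 243 CPM in NF_Calb1 (-5.39 ± 0.29 (SE)). Its paralog Calcb stood at 583 against 152 CPM, and how the authors' counting treated reads that fit both genes was not checked. Tac1 stood at 261, 423, 183, 337 and 210.3 CPM in PEP2 and 4.3, 14.6, 24.7, 4.7 and 12.5 CPM in NF_Calb1. The mean of Tac1 in PEP2, 283 ± 98 CPM, ranked 8 of 12 neuron types. It was near NP_Mrgpra3 at 291 CPM, NP_Nts at 302 CPM and Th at 287 CPM. The PEP1 types held 3546 to 6434 CPM and PEP3_Trpm8 4981 CPM.

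Cartpt varied between libraries. Cartpt, the precursor of the CART peptide, stood at 68, 152, 20.7, 22.1 and 36.2 CPM in PEP2, with an SD of 55.1, and Adcyap1, the precursor of PACAP, at 28.4 ± 10.8 CPM in PEP2 and 4.0 ± 2.93 CPM in NF_Calb1. Both Calca and Tac1 also had UMIs in satellite glia. Calca had a UMI in 47.2% of thinned NF_Calb1 cells against 87.7% of satellite glia, and Tac1 in 19.7% against 32.3%, so neither of these thinned NF_Calb1 shares was above that of the glia. The level of Calca in NF_Calb1 was uneven between cells, with 2066 CPM in 13 cells that score as PEP2, described further on, 63.4 CPM in the other 167 cells and 170.5 ± 104 CPM in satellite glia. Calca is among the genes of that score. Unthinned, Calca had a UMI in 82.2% of NF_Calb1 cells and 88% of satellite glia, and Tac1 in 47.2% and 39%, at the depths given above. Tac1 was found in 36.8% of thinned PEP2 cells, beside the 32.3% of satellite glia, and Calca in 97%, beside 87.7%.

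Genes that process peptides were not uniformly higher in PEP2. Of 13 genes, 3 were higher in NF_Calb1 and 1 in PEP2 (30.8%). Carboxypeptidase E (Cpe) stood at 1026 ± 72.1 CPM in NF_Calb1 and 365 ± 92.3 CPM in PEP2, chromogranin B (Chgb) at 199 against 43.1 CPM and the vesicle priming gene Cadps2 at 27.8 against 2.48 CPM in NF_Calb1 against PEP2. Secretogranin II (Scg2), the exception, stood at 638 ± 192 CPM in PEP2 and 68.5 ± 13 CPM in NF_Calb1. Of 5 intermediate filament genes 2 were called (40%). Nefm was higher in NF_Calb1, at 5356 ± 715 CPM in NF_Calb1 and 1974 ± 164 CPM in PEP2 (1.39 ± 0.11 (SE)). Vim was higher in PEP2, at 35.9 against 16.5 CPM. Nefl and Nefh, named after their values were seen, stood at 6983 against 4249.8 CPM and 5351 against 2724 CPM in NF_Calb1 against PEP2, within 2-fold.

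Ion channel genes divided between the types. Of 16 sodium channel genes, Scn1a was higher in NF_Calb1 and 4 were higher in PEP2 (31.25%). Scn1a, which encodes NaV1.1, stood at 198, 171, 224, 140.3 and 143 CPM in NF_Calb1 and 55.8, 40.2, 66.6, 21.2 and 34.8 CPM in PEP2. Scn10a, which encodes the nociceptor channel NaV1.8, stood at 382, 321, 461, 384 and 446 CPM in PEP2 and 100.3, 80.1, 128, 12.9 and 68.5 CPM in NF_Calb1, with Sample4 far lower than the other NF_Calb1 libraries. Cells of NF_Calb1 were uneven in Scn10a. It stood at 869.9 CPM in 13 cells that score as PEP2, described further on, and at 23.4 CPM in the other 167. Thinned, 10.1% of NF_Calb1 cells and 98% of PEP2 cells had a UMI of it. The auxiliary subunits Scn2b and Scn3b were at 75.6 against 2.44 CPM and 36.2 against 3.58 CPM in PEP2 against NF_Calb1, and the channel partner Fgf12 at 692 against 215 CPM. PEP2 had the highest mean level of Scn10a and Fgf12 of all 12 neuron types.

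Of 31 genes of voltage-gated potassium channels, 11 were higher in NF_Calb1 and 7 in PEP2 (58.1%). Those of largest fold in NF_Calb1 were Kcnd2, with 60 UMIs against 0 in PEP2 (at least 22.3-fold, taking 3 counts over the PEP2 sums as the floor, as for every such bound below), Kcns1 at 94.5 against 16.8 CPM, Kcng4 at 19.7 against 4.05 CPM and the auxiliary gene Dpp10 at 46.8 against 8.96 CPM. Without the cells that score as the other type, described further on, Kcng4 was no longer called, though its log2 fold change was 2.26, beside 2.35 with all cells, since the direction was then not the same in every library. In PEP2 they were Kcnv1 at 81.7, 65.1, 89.9, 60.4 and 82 CPM, against 0.716, 0.665, 1.27, 0.587 and 3.74 CPM in NF_Calb1, Kcnc2 at 6.23 against 0.538 CPM, Kcnip1 at 99.5 against 11.8 CPM and Kcna4 at 38.6 against 7.4 CPM. Kcnv1 encodes a silent subunit that modifies Kv2 channels, and Kcnip1 a calcium-binding partner of Kv4 channels. PEP2 was the highest neuron type for Kcnv1 and Kcnip1.

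Of 15 leak, inward rectifier and calcium- or sodium-activated potassium channel genes, 2 were higher in NF_Calb1 and 6 in PEP2 (53.3%). The leak channel genes Kcnk3 (TASK-1) and Kcnk1 stood at 41.6 against 3.11 CPM and 117 against 16.3 CPM in NF_Calb1 against PEP2. Kcnk2 (TREK-1), Kcnk4, Kcnk12, Kcnn2 and the BK channel subunits Kcnmb1 and Kcnmb4 were higher in PEP2, Kcnmb1 by the largest fold, at 144 ± 32.3 CPM in PEP2 and 1.52 ± 1.11 CPM in NF_Calb1. Of 13 genes named as calcium channel subunits, 4 were higher in each type (61.5%). NF_Calb1 held more of Cacng5, Cacna2d3, Cacng2 and Cacna1d, led by Cacng5 at 37.2 against 1.34 CPM. Cacng5 and Cacng2 are listed here by their names, and the proteins they act with were not examined. PEP2 held more of Cacna1c, Cacna2d1, Cacna2d2 and Cacna1b, and Cacna1b, the N-type channel, stood at 167 ± 17 CPM in PEP2 and 74.8 ± 10.9 CPM in NF_Calb1. Cacna2d1, the α2δ-1 subunit to which gabapentin binds, stood at 147 against 34.5 CPM.

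Channels of heat, acid and pressure had from 1 to 2 calls in each list. Of 9 TRP channel genes 1 was called, or 11.1% beside 12.7% of all tested genes, namely Trpm3, at 6.75 against 0.662 CPM in PEP2 against NF_Calb1, while Trpv2 and Mcoln1 were not, at 21.3 against 34.3 CPM and 23 against 16.8 CPM. Trpv1, at the levels given further above, was not called either, though its means lay further apart by fold than those of Trpv2 and Mcoln1. Of 6 pacemaker and acid-sensing channel genes, Asic3 and Hcn3 (33.3%) were higher in PEP2, Asic3 at 248 ± 55.3 CPM in PEP2 and 106 ± 28 CPM in NF_Calb1. PEP2 and NF_Calb1 were the first and second of 12 neuron types for Asic3. Of 10 mechanotransduction genes, Tmc7 and Stom (20%) were higher in PEP2, both at low levels of 10.4 against 4.69 CPM and 7.85 against 3.52 CPM. Piezo2, the main channel of touch and proprioception, named after its values were seen, stood at 345 against 293 CPM in NF_Calb1 against PEP2 and was not called.

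**Figure D4:**
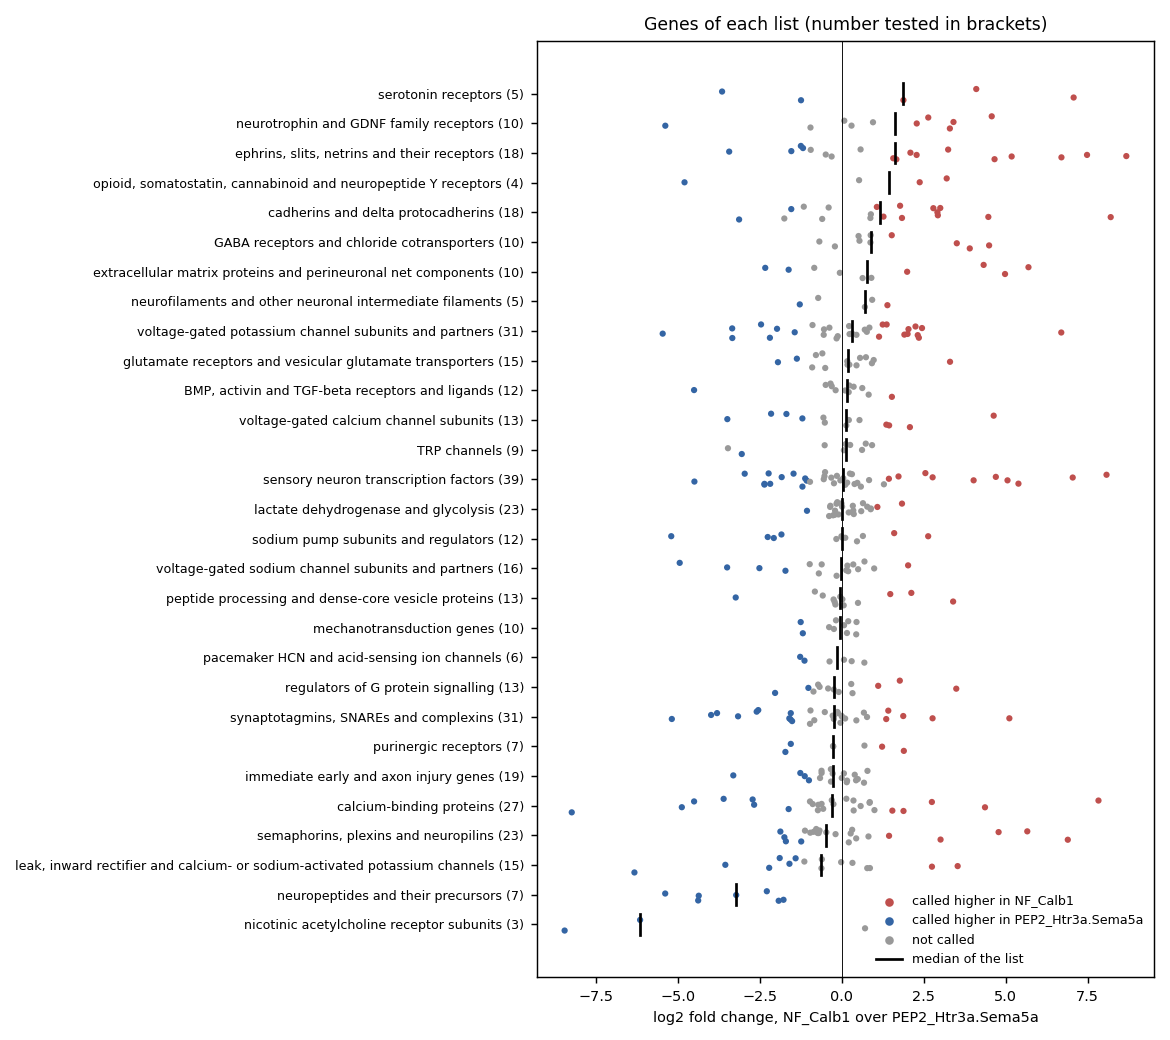
Log2 fold change of NF_Calb1 over PEP2_Htr3a.Sema5a for each tested gene of 29 lists (number tested in brackets), with medians as black bars. Neuropeptides lie wholly to the left, while serotonin receptors and guidance genes reach far to both sides.

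Receptors of serotonin split by subtype. All 5 tested genes were called: Htr1f, Htr1d and Htr7, which encode G protein-coupled receptors, were higher in NF_Calb1, and Htr3a and Htr3b, which encode channel subunits, in PEP2. Htr1d stood at 53, 73.1, 50.9, 62.2 and 64 CPM in NF_Calb1 and 8.09, 5.34, 3.23, 1.23 and 2.39 CPM in PEP2. Htr1f had 209 UMIs against 1, a ratio of 233 (95% counting interval 41.3 to 9238), and Htr7 stood at 26 against 6.87 CPM. Htr3b, which lies near Htr3a at chr9:48935008-48964990, stood at 70.4, 47.6, 64.3, 56.1 and 64.9 CPM in PEP2 and 33, 18.3, 26.5, 26.4 and 28.7 CPM in NF_Calb1. Both neighbours were highest in PEP2 of all 12 neuron types.

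Of 10 genes of GABA receptors and chloride cotransporters, 4 were higher in NF_Calb1 and none in PEP2 (40%). Gabrb2 stood at 46.6, 57.2, 49.4, 79.8 and 79.9 CPM in NF_Calb1 and 4.86, 3.31, 7.76, 3.07 and 8.16 CPM in PEP2, Gabrg1 at 32.9 against 1.46 CPM and Gabra5 at 12.7 against 4.15 CPM. These encode subunits of the GABA-gated chloride channel. Of 15 glutamate genes 3 were called (20%). Slc17a7, the vesicular transporter VGLUT1, was higher in NF_Calb1, at 221, 296, 224, 193 and 206 CPM against 26.7, 39.2, 14.9, 12.3 and 24.3 CPM. Grm7 and Gria1 were higher in PEP2, Grm7 at 51.8 against 14.2 CPM. Slc17a6, the transporter VGLUT2, named after its values were seen, stood at 284 against 249 CPM in NF_Calb1 against PEP2 and was not called.

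Of 3 tested nicotinic genes, Chrna3 and Chrnb4 were higher in PEP2 (66.7%). Chrnb2 was not called, at 60.2 against 35.1 CPM in NF_Calb1 against PEP2. Purinergic receptors split evenly, with P2rx6 and Adora1 higher in NF_Calb1 and P2ry2 and P2rx3 higher in PEP2, of 7 tested (57.1%). P2rx3, the ATP-gated channel of nociceptors, stood at 122 ± 30.6 CPM in PEP2 and 43.5 ± 11 CPM in NF_Calb1, and the adenosine receptor Adora1 at 117 ± 16.7 CPM in NF_Calb1 and 49.4 ± 12.2 CPM in PEP2. Of 4 tested opioid, cannabinoid and neuropeptide Y receptors 3 were called (75%). Oprl1, the nociceptin receptor, and Npy1r were higher in NF_Calb1, at 24.4 against 2.58 CPM and 9.93 against 1.66 CPM. Npy2r was higher in PEP2, at 32.7 ± 11.9 CPM in PEP2 and 1.08 ± 0.593 CPM in NF_Calb1. These neuropeptide Y receptor genes were higher in opposite types.

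Transcription factors of sensory neurons were called for 21 of 39 tested genes (53.8%, beside 12.7% of all tested genes), 10 higher in NF_Calb1 and 11 in PEP2. The median log2 fold change of the 39 was 0.04. Runx3, Shox2 and Tbx3 were among those higher in NF_Calb1. Shox2, a homeobox gene of touch neurons, stood at 69.5, 68.8, 96.7, 82.2 and 107 CPM in NF_Calb1 and 0, 3.05, 1.94, 1.23 and 2.39 CPM in PEP2. Tbx3 stood at 41.6 ± 7.48 CPM in NF_Calb1 and 1.25 ± 0.689 CPM in PEP2. PEP2 held more of Bcl11a, at 18.5 against 1.11 CPM, Prdm12, Sox4 and Ldb2. Prdm12, a gene needed for nociceptor development, stood at 129, 129, 124, 139.6 and 157 CPM in PEP2 and 22.9, 22.6, 21.4, 8.22 and 14.7 CPM in NF_Calb1, and was highest in PEP2 of all 12 neuron types.

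The promoter letters of genes that were higher together are shown for the neighbouring nicotinic subunits Chrna3 and Chrnb4, higher in PEP2, and for Ntrk2 and Shox2, higher in NF_Calb1. Each is the 250 bases before a RefSeq transcript start in GRCm38.p6, read 5′ to 3′ on the gene's strand, and capitals mark matches of the GC box GGGCGG or the RUNX core TGTGGT on either strand. The regions are chr9:55026563-55026812 on the minus strand for Chrna3, chr9:55048545-55048794 on the minus strand for Chrnb4, chr13:58806319-58806568 on the plus strand for Ntrk2 and chr3:66981772-66982021 on the minus strand for Shox2.
Chrna3: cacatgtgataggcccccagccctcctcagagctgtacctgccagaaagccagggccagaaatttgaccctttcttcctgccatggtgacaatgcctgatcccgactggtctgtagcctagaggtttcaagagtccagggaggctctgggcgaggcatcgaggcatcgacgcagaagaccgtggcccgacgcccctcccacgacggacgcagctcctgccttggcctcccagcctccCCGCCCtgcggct
Chrnb4: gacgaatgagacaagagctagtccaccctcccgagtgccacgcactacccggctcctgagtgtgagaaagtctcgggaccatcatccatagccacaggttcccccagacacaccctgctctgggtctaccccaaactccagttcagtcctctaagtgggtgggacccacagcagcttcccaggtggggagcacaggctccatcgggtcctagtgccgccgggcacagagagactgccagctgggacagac
Ntrk2: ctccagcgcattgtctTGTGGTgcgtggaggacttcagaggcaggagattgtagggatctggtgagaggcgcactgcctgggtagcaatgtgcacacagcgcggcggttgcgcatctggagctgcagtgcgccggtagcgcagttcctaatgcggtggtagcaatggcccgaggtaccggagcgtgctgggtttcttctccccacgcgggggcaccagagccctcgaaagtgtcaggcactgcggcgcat
Shox2: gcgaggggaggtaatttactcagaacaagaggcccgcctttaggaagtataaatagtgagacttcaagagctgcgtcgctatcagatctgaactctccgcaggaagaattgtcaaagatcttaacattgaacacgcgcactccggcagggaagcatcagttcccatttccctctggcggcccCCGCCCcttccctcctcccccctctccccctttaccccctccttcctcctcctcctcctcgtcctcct
Chrna3 and Shox2 held 1 GC box each, Ntrk2 held 1 RUNX core, and Chrnb4 held neither. Of 32851 promoter windows of this length, 32.7% held a GC box and 14% a RUNX core. With 1 window a gene, the RUNX core occurred in 7.33% of 491 genes called in NF_Calb1, 11.4% of 483 called in PEP2 and 10.2% of 7936 tested. The GC box occurred in 59.9%, 59% and 61.7% of them. A match describes letters and not a bound site.

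The lists of guidance and adhesion genes held more genes called in NF_Calb1 than in PEP2. Of 18 tested genes of ephrins, slits, netrins and their receptors, 10 were higher in NF_Calb1 and 4 in PEP2, beside 6.51% and 6.2% of all tested genes. Slit2, a repellent ligand, had 250 UMIs in NF_Calb1, with 30.8, 17, 13.5, 12.3 and 17 CPM in Sample1 to Sample5, and 0 in PEP2, at least 92.8-fold higher. The netrin receptor genes Unc5d and Unc5a had 247 and 87 UMIs against 2 each, ratios of 138 (95% counting interval 37.7 to 1142) and 48.5 (95% counting interval 13 to 406). In PEP2 the largest fold was that of the ephrin receptor gene Epha5, at 73.8 ± 5.42 CPM in PEP2 and 7.17 ± 2.87 CPM in NF_Calb1, followed by Ephb6, Efna1 and Unc5b.

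Of 23 semaphorins, plexins and neuropilins, 5 were higher in NF_Calb1 and 4 in PEP2 (39.1%). The median log2 fold change of the 23 was -0.48, on the side of PEP2. The ligands Sema3e and Sema7a stood at 44.7 ± 11.8 CPM in NF_Calb1 and 1.07 ± 0.959 CPM in PEP2 and at 49.5 against 1.47 CPM, and the receptor Plxna1 at 39.1 against 4.54 CPM. Sema5b, a relative of Sema5a, had 72 UMIs in NF_Calb1 and 0 in PEP2, at least 26.7-fold. The receptors Nrp2 and Plxnd1 were higher in PEP2, Nrp2 at 155 ± 19.1 CPM in PEP2 and 48.9 ± 10.1 CPM in NF_Calb1, as were Sema4c and Sema4d.

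Of 18 cadherins and protocadherins, 10 were higher in NF_Calb1 and 2, Pcdh15 and Cdh15, in PEP2 (66.7%). Cdh3, which encodes P-cadherin, had 183 UMIs against 0, at least 67.9-fold, and stood at 7.88, 7.65, 16.8, 9.98 and 13.7 CPM in NF_Calb1 of Sample1 to Sample5. The synaptic calsyntenin Clstn2 stood at 81.2 ± 9.36 CPM in NF_Calb1 and 3.78 ± 1.85 CPM in PEP2, Pcdh7 at 73.5 against 9.02 CPM and Pcdh11x at 14.1 against 1.18 CPM. Of 10 tested matrix genes, Hapln1, Spp1, Hapln4 and Nell2 were higher in NF_Calb1 and Dcn and Col11a1 in PEP2 (60%). Spp1, osteopontin, stood at 115, 97.4, 73.5, 68.1 and 70.2 CPM in NF_Calb1 and 3.24, 1.02, 1.94, 1.84 and 4.18 CPM in PEP2, and decorin (Dcn) at 50.1 ± 17.5 CPM in PEP2 and 9.97 ± 3.13 CPM in NF_Calb1.

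Calcium-binding proteins were called for 12 of 27 genes (44.4%), 5 higher in NF_Calb1 and 7 in PEP2. Pvalb, parvalbumin, stood at 236, 70.2, 47.8, 212 and 174 CPM in NF_Calb1 and 12.1, 4.07, 5.5, 6.44 and 6.37 CPM in PEP2, and in NF_Calb1 Sample2 and Sample3 were the lowest. Its level in NF_Pvalb neurons was 2773 ± 321 CPM. Caln1 and Necab2 were also higher in NF_Calb1, at 31.4 against 5.37 CPM and 13.8 against 3.38 CPM. In PEP2 the largest folds were those of Scgn, secretagogin, with 185 UMIs against 0 (at least 55.4-fold), S100a11 at 185 ± 74.3 CPM in PEP2 and 5.8 ± 5.81 CPM in NF_Calb1, Efhd2 at 125 ± 29.2 CPM in PEP2 and 5.68 ± 1.96 CPM in NF_Calb1 and Rcn1 at 25.6 against 2.16 CPM. Scgn was uneven in PEP2, at 38, 13.5, 9.05, 7.67 and 6.37 CPM, with Sample1 the highest.

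Calcium pumps were among the pairs that divided. Of 12 genes of sodium and calcium pumps, 2 were higher in NF_Calb1 and 4 in PEP2 (50%). Atp2b2 stood at 206 ± 39.1 CPM in NF_Calb1 and 32.3 ± 11 CPM in PEP2. Atp2b4, which encodes another plasma membrane calcium pump, stood at 42.9, 79.4, 71.5, 72.7 and 104 CPM in PEP2 and 9.31, 0, 2.04, 1.76 and 1.45 CPM in NF_Calb1. The sodium pump genes Atp1b3, Fxyd2 and Fxyd5 were also higher in PEP2, Fxyd2 at 572 against 117 CPM.

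Genes of transmitter release were called for 15 of 31 (48.4%), 5 higher in NF_Calb1 and 10 in PEP2. Syt13 had 85 UMIs against 2, a ratio of 47.3 (95% counting interval 12.7 to 397), and the calcium sensor Syt3 stood at 99.4 ± 15.7 CPM in NF_Calb1 and 13.5 ± 4.16 CPM in PEP2. The vesicle SNARE gene Vamp1 stood at 519 ± 120.4 CPM in NF_Calb1 and 137 ± 34.5 CPM in PEP2, and Syt12 at 22.4 against 8.09 CPM. In PEP2 the priming factor Unc13c stood at 60.3 ± 15.2 CPM in PEP2 and 3.82 ± 2.17 CPM in NF_Calb1, the vesicle SNARE gene Vamp8 at 30.6 against 2.38 CPM, Syt16 at 10.4 against 0.225 CPM and Syt5 at 37.9 against 4.58 CPM. Of 13 regulators of G protein signalling, Rgs6, Rgs20 and Rgs2 were higher in NF_Calb1 and Rgs3 and Rgs4 in PEP2 (38.5%). Rgs3 stood at 125 against 31.6 CPM in PEP2 against NF_Calb1. Rgs4, at 542 against 272 CPM, sat at the 2-fold limit.

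Of 12 genes of BMP, activin and TGF-beta signalling, 1 was called in each direction, or 16.7%, near the 12.7% of all tested genes. Bmpr1b, a BMP receptor, was higher in PEP2 at 13.8 ± 2.53 CPM in PEP2 and 0.696 ± 0.293 CPM in NF_Calb1, and Tgfbr2 in NF_Calb1 at 11.3 against 3.96 CPM. Of 19 immediate early and axon injury genes, none was higher in NF_Calb1 and 4 were higher in PEP2 (21.1%, beside 12.7% of all tested genes). These were Gap43, Stmn4, Ier2 and Junb. Gap43, a growth cone protein, stood at 1496, 1522, 1630.2, 1903 and 1548 CPM in PEP2 and 196, 161, 138, 184 and 165 CPM in NF_Calb1 (-3.31 ± 0.12 (SE)), and was highest in PEP2 of all 12 neuron types. Junb, at 227 against 115 CPM, lay at the 2-fold limit, and Fos and Atf3, named after their values were seen, were not called, at 231 against 242 CPM and 105 against 147 CPM in PEP2 against NF_Calb1.

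Of 23 glycolysis genes 3 were called, or 13%, close to the 12.7% of all tested genes. Aldoc and Hk2 were higher in NF_Calb1, at 114 against 28.3 CPM and 12.7 against 5.71 CPM, Pdk1 was higher in PEP2, at 30.2 against 14.7 CPM, and 20 were not called. Their median log2 fold change was 0.01.

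In mean levels of the sums, both types also shared genes that set them apart from the other 10 neuron types. The mean level was at least 20 CPM in both, and at least 2 times that of every other neuron type, for 15 genes, and 3 of them (Cryab, Trappc3l and Serpinb1a) were also called between both types. These levels chose the genes and are given as a description. S100a16, an EF-hand protein gene at chr3:90537254-90543151, was the most restricted, at 214, 140.3, 225, 201 and 157 CPM in NF_Calb1 and 212, 269.7, 407, 344 and 272 CPM in PEP2. The ranges overlapped, and the highest other neuron type, PEP1_S100a11.Tagln2, had 4.82 ± 1.65 CPM. Satellite glia held 483 ± 46.8 CPM of S100a16, and their marker sums were 644 CPM in NF_Calb1 and 710.2 CPM in PEP2, against 348 to 929 CPM in the other 10 neuron types. Cells were uneven. Unthinned, S100a16 had a UMI in 12 of 13 NF_Calb1 cells that score as PEP2, described further on, in 61 of the other 167 and in 136 of 204 PEP2 cells. Sema5a and Trappc3l each had a UMI in all 13 and in 79 of the 167. In the 204 PEP2 cells it was 169 and 184.

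Cgnl1, a tight junction protein gene, Sema5a and Cdh4, which encodes R-cadherin, followed, at 5.16, 4.56 and 4.2 times the next neuron type for the lower of both levels. The crystallin gene Cryab stood at 218 ± 73.4 CPM in NF_Calb1 and 65.4 ± 6.4 CPM in PEP2, and at 1708 ± 279.7 CPM in satellite glia. The complexin gene Cplx2 stood at 285 against 496 CPM in NF_Calb1 against PEP2, Greb1 at 33.7 against 35.1 CPM, Aox1 at 36.6 against 46.3 CPM and Sfrp1, a secreted Wnt inhibitor, at 73 against 70.4 CPM. Trappc3l stood at 226, 325, 570.4, 209.5 and 187 CPM in NF_Calb1 and 843, 778, 1118, 652 and 689.5 CPM in PEP2, and Serpinb1a at 89.2 against 246 CPM. The synaptic pentraxin Nptx1 was nearly equal, at 308 ± 66.1 CPM in NF_Calb1 and 287 ± 62.3 CPM in PEP2.

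Only 1 gene was at least 2 times below every other neuron type in both, Ngfrap1 on chromosome X, a gene for an adaptor of the p75 neurotrophin receptor. It stood at 205, 107, 64.9, 195 and 152 CPM in NF_Calb1 and 78.5, 189, 47.5, 129 and 164 CPM in PEP2, while the lowest of the other 10 neuron types, NF2_Ntrk2.Necab2, held 444 ± 101 CPM and NP_Mrgprd the most, at 1592 ± 174 CPM. The rule was applied to all 17267 genes.

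The called genes were shared with other neuron types to different degrees, inside and outside the class of each type. Of the 673 genes higher in NF_Calb1, 504 (74.9%) also stood at least 2 times above PEP2 in NF_Pvalb and 381 (56.6%) in NF2_Ntrk2.Necab2, and 83 (12.3%) in neither. Outside the NF class the share was highest in Th, at 36.1%, and PEP3_Trpm8, at 32.8%, and lowest in PEP1_S100a11.Tagln2, at 10.5%. The highest level of these 673 genes among 12 neuron types lay in NF_Pvalb for 263 genes and in NF_Calb1 itself for 176. Of the 641 genes higher in PEP2, 463 (72.2%) stood at least 2 times above NF_Calb1 in PEP1_S100a11.Tagln2, and the share was 71.6% in PEP1_Dcn, 68.2% in PEP1_Slc7a3.Sstr2 and 50.1% in PEP3_Trpm8. Outside the PEP class it was 57.3% in NP_Mrgpra3, 50.9% in NP_Nts, 48.4% in NP_Mrgprd and 39% in Th. It was 19.5% in NF2_Ntrk2.Necab2 and 11.2% in NF_Pvalb. PEP2 itself was the highest type for 131 of the 641 genes, and 102 were raised in none of the other 4 PEP types. These comparisons share the level of the lower type and are given as counts only. The same shares over all tested genes were not computed.

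Single cells mostly held to their type. The 50 called genes of largest fold in each direction were chosen in 4 libraries, and each cell of the fifth library was scored by the log2 ratio of its UMIs, per 10000 plus 1, in both gene groups. The median score was 3.32 in NF_Calb1 and -6.21 in PEP2, with the midpoint of both means between -1.86 and -1.71. In all, 13 of 180 NF_Calb1 cells and 2 of 206 PEP2 cells lay on the side of the other type. The 13 cells came from every library, with 1, 1, 4, 2 and 5 cells in Sample1 to Sample5, and their lowest score was -6.14.

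**Figure D5:**
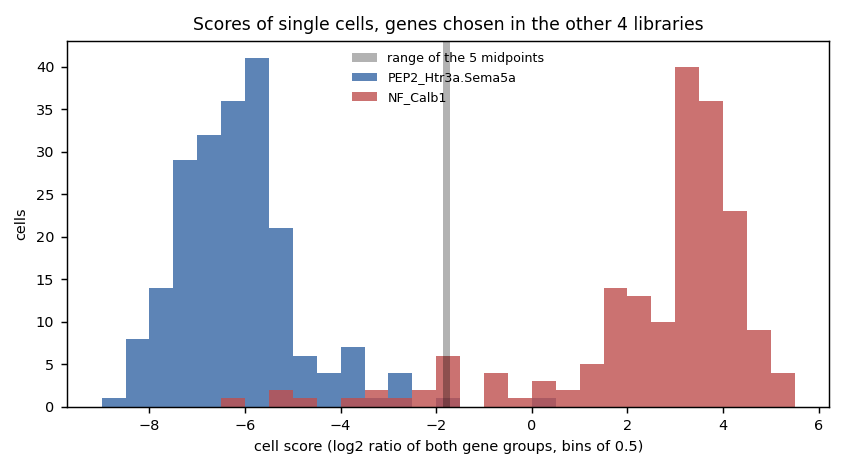
Number of cells (y axis) by score (x axis, log2 ratio, bins of 0.5) for NF_Calb1 in red and PEP2_Htr3a.Sema5a in blue, with the range of the 5 midpoints in grey. PEP2 forms 1 peak near a median of -6.21, NF_Calb1 peaks near 3.32, with a lower shoulder of 14 and 13 cells in the bins that start at 1.5 and 2, and 13 NF_Calb1 cells lie left of their own library's midpoint.

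Those 13 cells, chosen by the score, differed from the other 167 NF_Calb1 cells in genes the score used and in genes it did not. Among genes outside the score, they held 869.9 CPM of Scn10a against 23.4 CPM in the other NF_Calb1 cells and 404 CPM in PEP2, and 12 of 13 had a UMI of it. They held 777 CPM of Ntrk3 against 296 and 54.5 CPM, and 0.954 CPM of Ntrk2 against 143 and 4.62 CPM. Their Ntrk3 thus exceeded both types, while only 1 of the 13 cells had a UMI of Ntrk2. That Ntrk2 level lies under the counting floor, since 3 counts in these cells make 2.86 CPM.

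Sema5a stood at 330.0 CPM in the 13 cells, above 50.9 CPM in the other NF_Calb1 cells and 117 CPM in PEP2, and S100a16 at 472, 159.8 and 307 CPM. Ret stayed near the other NF_Calb1 cells, at 335 against 416 CPM, and Nefh too, at 5449.5 against 5420.3 CPM. Htr3a, at 78.2 CPM, was far from the 599 CPM of PEP2. Among genes of the score, Calca stood at 2066 CPM and Calb1 at 2.86 CPM, and Runx3 and Chrna3 had 0 UMIs in the 13 cells, which allows up to 2.86 CPM. Their median depth was 80468 UMIs, against 77170 in the other NF_Calb1 cells. No doublet caller was run, and the part of doublets was not tested.

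Leaving these 15 cells out, an alternative chosen after the data were seen, gave 703 and 702 called genes, 663 and 630 of them called before. Sema5a, Cdh4 and Cplx2 then passed the call as higher in PEP2, with log2 fold changes of -1.28, -1.61 and -1.18. Sema5a was thus not called with these cells and called without them.

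The NF_Calb1 type as a whole, with the 13 cells not set aside, was uneven too. Unthinned, 3 of the 13 had a UMI of Calb1 and 1 of Ntrk2, against 100 and 148 of the other 167 NF_Calb1 cells. Of 178 thinned NF_Calb1 cells, 82 held UMIs of both Calb1 and Ntrk2, 7 of Calb1 alone, 30 of Ntrk2 alone and 59 of neither. Runx3 had a UMI in 28 cells, and 3 of these also held Calb1, while 25 also held Pvalb and 27 Ntrk3. The 28 cells are 15.7% of the type, so at this depth most cells of the type had no UMI of the leading gene with the largest fitted fold change. In PEP2, Htr3a and Calca had UMIs together in 187 of 201 cells. Kit without Cartpt was found in 94 PEP2 cells, Cartpt without Kit in 19, both in 20 and neither in 68.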

How the data were processed

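Single-cell RNA sequencing libraries were made from DRGs of 5 mice. The deposited values are raw UMI counts per gene and cell, which the authors made with Cell Ranger on mm10 (GRCm38) with the UCSC gene model, pooling 5 libraries in 1 table after filtering cells and clustering them with Seurat. A second deposited table names the type of every cell. The authors kept cells with a mitochondrial share of at most 10%, and by the 37 mitochondrial rows counted here 188 of 3352 cells exceed it, 56 of them among the 386 cells compared. The authors limited cell loading, and no doublet caller was run here. The sums held 1235586 to 5025273 UMIs, and intervals and floors cover counting error only. Of 17271 rows, 4 name no mouse gene and held 6.37e-05% of UMIs, and these were left out.

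Libraries were told apart by the identifier in the cell name. No sample label names these identifiers, so they were called Sample1 to Sample5 because all 70 counts of cells per library and type equal those in the supplementary data of the study. Each was taken as 1 mouse, and nothing else about a mouse was used. UMIs were summed per type and library and tested with edgeR 4.0.16 (R 4.3.3), quasi-likelihood with filterByExpr, TMM and the library as a block, adjusted by Benjamini-Hochberg over all genes tested. The pairing comes from the shared mouse, and the correlations of paired deviations were 0.0383 to 0.426. DESeq2 1.42.0, other scalings, filters and cell sets, and each library left out were the alternatives. Library measures were compared with exact sign-flip tests in scipy 1.17.1. The fit was also run on simulated counts, with 1 common dispersion for all genes and no library effect. There 96.9% of genes changed 2-fold and 100% of those changed 4-fold had an adjusted p under 0.05 in the right direction. So did 12 unchanged genes, in either direction, with 10368 genes tested. The 2-fold limit and the rule of 5 of 5 libraries were not applied there, so these shares are not those of the call.

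Members, gene lists and rules were chosen with earlier results of these data known. Genes named are those in the type names, the 12 of largest fold in each direction with at least 20 CPM, up to 4 called members of each list in each direction (where fewer than 2 were called, also up to 2 members of highest level), and up to 12 genes high or low in both types; a gene named beyond the first 4 of its list, and the cells' marker genes, were named after their values were seen. Paralogs such as Calca and Calcb and overlapping or antisense genes may share reads, and counting by strand was not checked. Some genes that these rules select are not reported here. Promoter windows came from RefSeq. The level in CPM is not scaled by transcript length, so levels were compared between cells and not between genes.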

Additional observations from a re-analysis of the deposited data

Results flagged for a closer look

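In 10 of 135 groups of 5 values, 1 library lay far from the other 4 by Dixon's test. Chance gives about 1 in 20 such groups. The values are log2 ratios of CPM in NF_Calb1 over PEP2 within a library.

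Receptor, channel and release genes come first. Ntrk2 stood at 7.28 in Sample4, against 3.83 to 4.59 in the other libraries. Scn10a stood at -4.89 in Sample4, against -2.70 to -1.85. Adora1 stood at 1.97 in Sample4, against 1.02 to 1.25. Htr3a stood at -4.67 in Sample2, against -3.62 to -3.22. Gabrg1 stood at 5.24 in Sample2, against 4.22 to 4.49. Cadps2, of the vesicle priming machinery, stood at 6.46 in Sample3, against 2.71 to 3.70. Some of these ratios rest on a few UMIs in PEP2. The PEP2 level was 0.92 CPM for Ntrk2 in Sample4, in a sum of 3260095 UMIs. It was 0.763 CPM for Gabrg1 in Sample2, in 3930303 UMIs, and 0.323 CPM for Cadps2 in Sample3, in 3092834 UMIs.

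Among adhesion and matrix genes, Clstn2 stood at 6.14 in Sample3, against 3.73 to 4.41. Its PEP2 level in Sample3 was 1.29 CPM, again a few UMIs. Pcdh7 stood at 2.27 in Sample5, against 3.18 to 3.40. Dcn stood at -2.08 in Sample3, against -2.40 to -2.33. S100a16 stood at 0.0145 in Sample1, against -0.94 to -0.78. The direction was the same in all 5 libraries for each of the 10 genes except S100a16.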

How the results depend on the processing

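Without the replicate block, which pairs both types of a mouse, 669 genes were higher in NF_Calb1 and 633 in PEP2, and no named gene changed its call. The counts were 674 and 631 with DESeq2's size factors, 680 and 620 with DESeq2, 883 and 862 without a filter, 655 and 624 with cells of at most 10% mitochondrial UMIs, and 678 and 596 with equal numbers of cells. Thinned to 20000 UMIs a cell, which also left fewer genes to test, they were 427 and 361. With 1 library left out they were 708 to 735 and 616 to 760, and all 5 leave-outs tested 4 libraries only. Genes high in both types numbered 41 at a ratio of 1.5, 9 at a ratio of 3, 18 at 10 CPM and 15 to 16 with 1 library left out, and genes low in both 2 at a ratio of 1.5. The log2 ratio of UMIs per cell turned to -0.0108 with the mean over cells, and lay between 0.0236 and 0.128 with 1 library left out. Leave-outs gave -0.284 to -0.0176 for cells per library and 1.12 to 1.87 points for the mitochondrial share. With 20 or 100 genes a direction, or thinned cells, 15, 10 and 16 cells scored on the side of the other type. Sfrp1, nearly equal in both types, turned from -0.01 to 0.0107 with DESeq2, 0.108 with the mitochondrial limit, 0.0392 with equal cells, and 0.0728 and 0.0579 without Sample4 and Sample5, with -0.117 without Sample1. Nptx1 turned to -0.0312 without Sample2 (up to 0.126 without Sample4) and -0.124 without the 15 cells, and Ngfrap1 to -0.00815 without Sample1 (up to 0.4999 without Sample2). Of 157 named genes called, 15 lost the call under at least 1 alternative that could test them: Vim, Hcn3 and Hk2 without Sample5, Stom without Sample4, Ier2 without Sample2, Rgs4 without Sample3 or Sample5, and Junb without Sample3, Sample4 or Sample5. Asic3, Cacna2d2, Efna1, Vim, Rgs4 and Junb lost it in thinned cells, Gria1, Unc5b, Rgs4 and Junb with the mitochondrial limit, Npy1r, Cryab and Junb with equal cells, Junb also with DESeq2 and with its size factors, and Kcng4 without the 15 cells. The cause of these changes was not tested. Genes of a few UMIs have wide counting intervals, and cells of fewer than 20000 UMIs were left out of the thinned fit.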
